A study of Rattus norvegicus with 14 samples.

Results

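Triglyceride stored in a cell is broken down by a chain of lipases, each with its own partners, and 9 genes of that chain were followed across PCCL3 rat thyroid cells with and without the PAX8-PPARG fusion protein (PPFP). They were taken by symbol from the table of raw read counts: Pnpla2, Lipe and Mgll for the lipases, G0s2, Abhd5, Abhd15 and Apmap for factors around them, and Lpl and Angptl4 for the extracellular step. All 9 were among the 16816 gene symbols of the table. The fusion protein in PPFP cells is the human one, made from a stable transgene with a 3xMyc tag. The control line, EV, holds a vector with no insert. Both lines were cultured for 16 hours with 1 μM pioglitazone, a thiazolidinedione ligand of PPARG, or with its DMSO vehicle, which gave 4 groups of 3 RNA-seq libraries. The model is 1 cell line carrying a transgene, and whether each derivative is a clone or a pool is not given in the sources used here. The replicates come from 3 independent experiments on the same stable lines, so their spread does not include variation between transfections.

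In intracellular lipolysis, adipose triglyceride lipase (ATGL, encoded by Pnpla2) takes the first fatty acid from triglyceride, hormone-sensitive lipase (HSL, Lipe) acts on the resulting diacylglycerol, and monoglyceride lipase (Mgll) releases the last fatty acid and glycerol. ABHD5, also called CGI-58, activates ATGL, and G0S2 inhibits it. Outside the cell, lipoprotein lipase (LPL) releases fatty acids from lipoproteins, and ANGPTL4 inhibits LPL. In fat cells PPARG drives many of these genes, through a response element made of a pair of AGGTCA hexamers with 1 base between them. Thyroid follicular cells are known for making thyroglobulin rather than for storing fat.

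The libraries held between 23724703 and 35240176 counts each. Pparg, which checks the labels, was between 1.20 and 2.83 CPM (read counts scaled to library size) in the 6 EV libraries and between 46.9 and 61.7 CPM in the 6 PPFP libraries. Reads of the human transgene and of the rat gene cannot be told apart in this count. All 7 thyroid markers examined, among them Tg, Tshr, Pax8 and Nkx2-1, were above 3 counts in every group, and without pioglitazone their summed level ran from 9860 to 13509 CPM in the EV group and from 13441 to 14088 CPM in the PPFP group. With pioglitazone the ranges were 10524 to 14141 CPM and 9828 to 10089 CPM. CPM values here were scaled for library size and composition but not for gene length, so levels are compared between samples and not between genes. A gene was called when its adjusted p in edgeR's quasi-likelihood test was under 0.05, and calls above 2-fold are counted separately.

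Promoter sequence was available for 7 of the 9 genes, in 8 windows, 2 of them for Apmap. It is RefSeq sequence on the GRCr8 assembly and covers the 250 bases before the annotated start, written on the strand of the gene, 5′ to 3′. The windows of 4 genes are shown because they stand for the response types described below: Angptl4 with the largest fold change of the lipolysis genes tested, the ATGL inhibitor G0s2, ATGL itself, and the activator Abhd5, for which pioglitazone produced no call. Capitals mark the 6-base motif AGGNCA, on either strand, in which N is any base.
Angptl4, chr7:15258682-15258931, minus strand: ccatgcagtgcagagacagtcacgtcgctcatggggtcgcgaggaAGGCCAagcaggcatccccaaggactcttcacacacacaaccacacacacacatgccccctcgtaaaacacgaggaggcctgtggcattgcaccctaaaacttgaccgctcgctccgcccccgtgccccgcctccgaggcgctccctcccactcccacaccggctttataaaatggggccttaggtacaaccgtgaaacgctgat
G0s2, chr13:107335949-107336198, minus strand: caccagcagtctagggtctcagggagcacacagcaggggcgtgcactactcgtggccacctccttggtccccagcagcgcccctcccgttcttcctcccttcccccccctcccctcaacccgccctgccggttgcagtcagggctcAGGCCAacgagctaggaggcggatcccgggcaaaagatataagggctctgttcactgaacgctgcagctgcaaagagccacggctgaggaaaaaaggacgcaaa
Pnpla2, chr1:205982029-205982278, plus strand: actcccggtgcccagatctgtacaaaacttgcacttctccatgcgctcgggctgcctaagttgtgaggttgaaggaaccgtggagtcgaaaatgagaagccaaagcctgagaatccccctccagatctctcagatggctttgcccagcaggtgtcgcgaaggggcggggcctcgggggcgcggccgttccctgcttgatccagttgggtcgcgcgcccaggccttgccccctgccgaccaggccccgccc
Abhd5, chr8:130877622-130877871, plus strand: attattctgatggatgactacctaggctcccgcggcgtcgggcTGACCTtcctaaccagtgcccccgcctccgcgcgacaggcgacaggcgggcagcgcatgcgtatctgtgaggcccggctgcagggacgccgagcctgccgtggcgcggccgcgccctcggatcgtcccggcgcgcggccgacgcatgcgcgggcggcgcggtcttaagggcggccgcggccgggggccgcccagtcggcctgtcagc

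The full element AGGTCANAGGTCA was in 0 of the 8 windows, searched on both strands, against 0.0508% of the 33469 promoter windows in the same table. The relaxed form AGGNCANAGGNCA was also in 0 of the 8 windows, against 0.368% of all windows. A single AGGTCA was in 2 of the 8, those of Abhd5 and of the second Apmap start, against 14.1% of all windows. The relaxed hexamer AGGNCA, which includes AGGTCA, was in 5 of the 8 against 51.2% of all windows. Counted from the annotated start, it began at -205 in the Angptl4 window, at -104 in that of G0s2 and at -207 in that of Abhd5, and it was not in the Pnpla2 window. These windows are short and only show whether the letters are there.

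The first comparison asked what PPFP does to the lipolysis genes without added ligand. Of the 9 genes, 8 had enough counts to be tested, and 7 of these 8 were called higher in PPFP cells, while 22.0% of the 10264 genes tested were called higher and 23.1% lower. The 7 were Angptl4, G0s2, Abhd15, Lipe, Pnpla2, Apmap and Abhd5. Angptl4, G0s2 and Abhd15 were also above 2-fold, a level that 7.27% of all genes tested reached. The median log2 fold change of the 8 genes was 0.72, beside 0.0016 over all genes tested. In RNA from whole cultures, more expressing cells and more RNA per cell cannot be told apart. In each of the 8 genes the lowest PPFP library was above the highest EV library, as in 27.6% of all genes tested. With pioglitazone the same held for the 8 genes and for 31.0% of all genes.

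With pioglitazone in both cell lines, 7 of the 8 genes were called higher in PPFP cells and all 7 were above 2-fold. The shares over the 10291 genes tested were 26.3% higher, 26.4% lower and 9.30% higher by more than 2-fold. The median log2 fold change was 1.78 for the 8 genes and 0.012 for all genes tested. The gene outside the 7 was Abhd5. Each comparison of the cell lines shares libraries with each comparison of the treatments, so these are not independent of each other.

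Pioglitazone raised 7 of the 8 genes in PPFP cells, where 7.63% of the 10064 genes tested were called higher and 7.13% lower. Angptl4, Mgll, Abhd15 and Apmap rose by more than 2-fold, which 1.11% of all genes tested did. All 3 libraries with pioglitazone were above the 3 without it for these 7 genes and for 16.4% of all genes. With same-numbered libraries paired the number of the 8 called stayed at 7, while the share of all genes called higher was 27.7%. In EV cells edgeR called 0 of the 8 genes and 0% of the 10146 genes tested. None of the 8 had an unadjusted p under 0.05 there, 16 of all genes did, and DESeq2 and edgeR's exact test called 0 genes as well. Those 16 are far fewer than a share of 0.05 of the genes tested, so the unpaired quasi-likelihood test was conservative there. With same-numbered libraries paired, 1 gene was called, which was none of the 8. The 8 genes had a median log2 response to pioglitazone of 0.97 with PPFP and of -0.0099 with the empty vector, beside medians of 0.012 and -0.0018 over all genes. The difference between these responses was called for 5 of the 8 genes, Angptl4, Mgll, Abhd15, Apmap and Pnpla2, against 1.38% of the 10482 genes tested. It was above 2-fold for 4 of them, against 0.439% of all genes. With same-numbered libraries paired 7 of the 8 genes were called, and the share of all genes called higher was 17.2%.

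**Figure D1:**
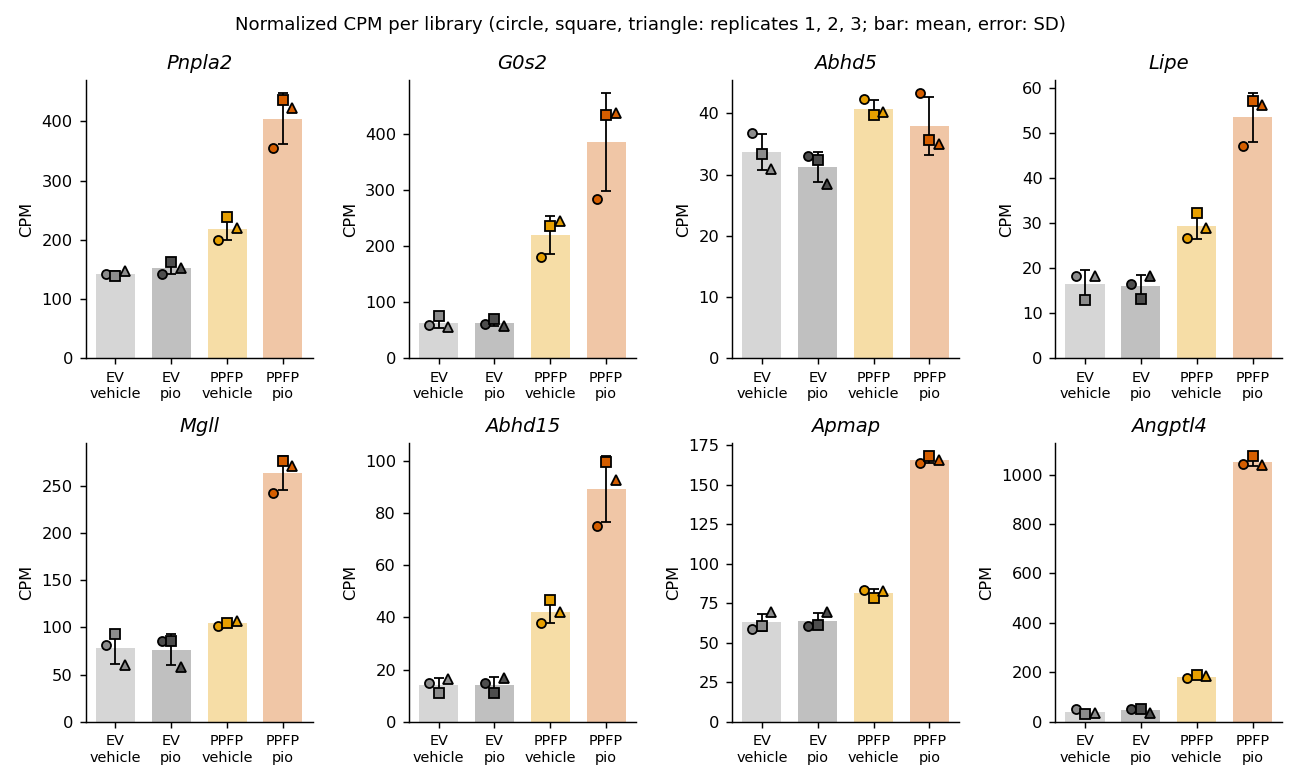
Normalized level in CPM of the 8 tested genes in each library, with EV and PPFP cells without (vehicle) and with pioglitazone (pio) on the x axis, bars for group means and error bars for the SD of 3 libraries. For Angptl4 the PPFP libraries with pioglitazone lie between 1038 and 1074 CPM, above those of the other groups, while for Abhd5 they overlap the PPFP libraries without it.

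Pnpla2, the lipase of the first step, was at 142, 140 and 147 CPM in the 3 EV libraries without pioglitazone and at 142, 162 and 152 CPM with it. PPFP libraries held 199, 238 and 219 CPM without the drug and 355, 435 and 423 CPM with it. The EV groups overlapped each other, and both PPFP groups were above them without overlap. PPFP cells were higher by a log2 fold change of 0.61 ± 0.088 (SE, adjusted p = 0.0011) without pioglitazone and by 1.43 ± 0.11 (adjusted p = 5.5e-05) with it. The drug raised Pnpla2 in PPFP cells by 0.90 ± 0.11 on the log2 scale (adjusted p = 0.0036). Its log2 response in EV cells was 0.085 with a 95% interval of -0.11 to 0.28, and the 2 responses differed by 0.80 ± 0.13 (adjusted p = 0.0091).

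Lipe encodes HSL, the diacylglycerol lipase of the second step. Its levels were 18.3, 13.0 and 18.3 CPM in EV cells, 16.5, 13.1 and 18.3 CPM in EV cells with pioglitazone, and 26.8, 32.4 and 29.0 CPM in PPFP cells. With pioglitazone the PPFP libraries reached 47.2, 57.0 and 56.2 CPM. The EV libraries of number 2 were the lowest in both treatments, and no PPFP library overlapped an EV library. Lipe was higher in PPFP cells by 0.83 ± 0.15 (adjusted p = 0.0036) without the drug and by 1.76 ± 0.15 (adjusted p = 9.5e-05) with it, on the log2 scale. Pioglitazone raised it by 0.88 ± 0.11 in PPFP cells (adjusted p = 0.0044). The difference from the response in EV cells was 0.91 ± 0.22 and did not pass in the unpaired fit (adjusted p = 0.055). With same-numbered libraries of a cell line paired it was 0.91 with an adjusted p of 9.8e-07.

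Mgll, which encodes the lipase of the last step, rose with pioglitazone in PPFP cells but was not called between the lines without it. It was at 81.3, 92.7 and 60.4 CPM in EV cells and at 101, 105 and 106 CPM with PPFP, groups that did not overlap but lay close together. The log2 fold change was 0.42 ± 0.15, which was not called (adjusted p = 0.053). Pioglitazone took PPFP cells to 243, 276 and 271 CPM and left EV cells at 85.6, 86.1 and 57.9 CPM. Within PPFP cells the log2 response was 1.35 ± 0.071 (adjusted p = 0.00036), and between the lines it differed by 1.37 ± 0.24 (adjusted p = 0.011). PPFP cells with the drug were above EV cells with the drug by 1.80 ± 0.16 (adjusted p = 9.8e-05).

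G0s2, the inhibitor of ATGL, was higher in PPFP cells in both treatments. EV libraries held 59.5, 75.7 and 56.6 CPM without and 61.6, 69.3 and 57.8 CPM with pioglitazone. PPFP libraries held 180, 236 and 244 CPM without the drug and 284, 435 and 438 CPM with it. All 6 PPFP libraries were more than 100 CPM above the highest EV library. The log2 fold change between the lines was 1.78 ± 0.16 (adjusted p = 0.00011) without pioglitazone and 2.63 ± 0.19 (adjusted p = 4e-05) with it. The response to the drug in PPFP cells, 0.82 ± 0.20, passed narrowly (adjusted p = 0.042), and without any 1 of 5 of the 6 libraries its adjusted p was 0.069 to 0.14. The responses of the lines differed by 0.83 ± 0.25, which was not called unpaired (adjusted p = 0.13) and was called with same-numbered libraries paired (0.81, adjusted p = 8.9e-07).

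Abhd5, the activator of ATGL, had the smallest fold change of the 8 genes in each of the 3 comparisons that involve PPFP cells. It was at 36.8, 33.3 and 30.9 CPM in EV cells and at 33.0, 32.4 and 28.5 CPM with pioglitazone. PPFP cells held 42.4, 39.7 and 40.2 CPM, and 43.3, 35.6 and 34.9 CPM with the drug. The log2 difference between the lines was 0.28 ± 0.094 without pioglitazone (adjusted p = 0.046), a call that was lost in 9 of 14 alternative settings. With pioglitazone it was 0.29 ± 0.11 and was not called (adjusted p = 0.051). The response in PPFP cells was -0.095 (adjusted p = 0.55) with a 95% interval of -0.31 to 0.12, which leaves out the rise of 0.90 estimated for Pnpla2. The responses of the lines differed by 0.0009, with an interval of -0.31 to 0.31.

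The balance between ATGL and its partners was followed as the ratio of read counts within each library. These ratios depend on gene length and are not ratios of molecules, but they can be compared between groups. G0s2 over Pnpla2 was 0.448 ± 0.083 (SD, n = 3) in EV cells and 0.414 ± 0.029 with pioglitazone, and 1.00 ± 0.10 and 0.945 ± 0.13 in PPFP cells. The lowest PPFP library, at 0.802, was above the highest EV library, at 0.542. Abhd5 over Pnpla2 went the other way, with 0.236 ± 0.025 in EV cells and 0.207 ± 0.023 with the drug, then 0.188 ± 0.023 for PPFP and 0.0954 ± 0.023 for PPFP with the drug. The 3 PPFP libraries with pioglitazone, at most 0.122, were below all the others, of which the lowest was at 0.167. In PPFP cells without pioglitazone the Abhd5 ratio overlapped that of EV cells.

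**Figure D2:**
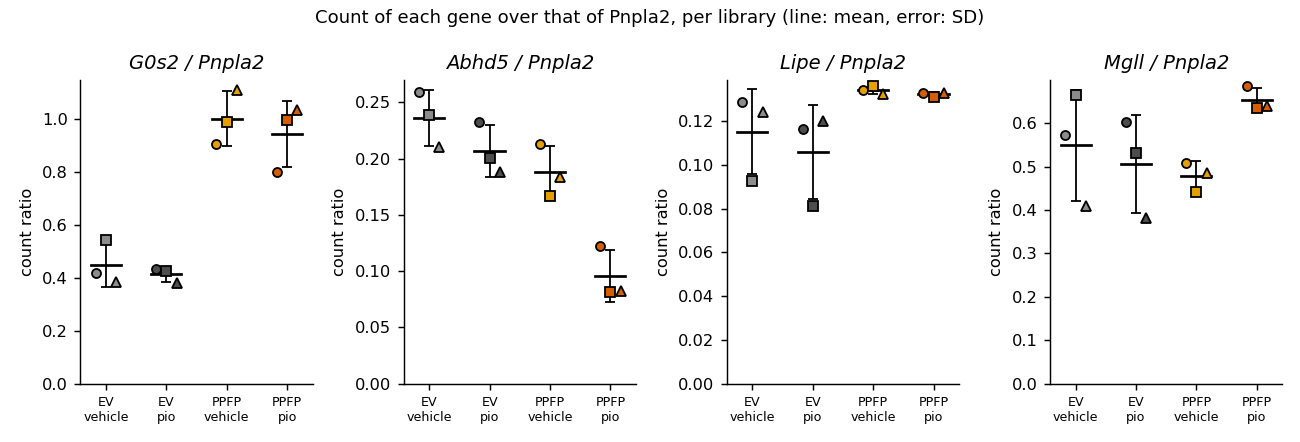
Count of G0s2, Abhd5, Lipe and Mgll divided by that of Pnpla2 in the same library, for EV and PPFP cells without (vehicle) and with pioglitazone (pio), with lines for group means and error bars for the SD of 3 libraries. The G0s2 ratio is at 0.802 or above in PPFP libraries and at 0.542 or below in EV libraries, and the Abhd5 ratio is lowest in the 3 PPFP libraries with pioglitazone.

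The proportions of the 3 lipases were followed in the same way. Lipe over Pnpla2 was 0.115 ± 0.020 in EV cells, 0.106 ± 0.022 in EV cells with the drug, 0.134 ± 0.0020 in PPFP cells and 0.132 ± 0.0011 in PPFP cells with it. Mgll over Pnpla2 was 0.549 ± 0.13, 0.505 ± 0.11, 0.479 ± 0.034 and 0.653 ± 0.027 in the same order. In PPFP cells the Mgll ratio did not overlap between treatments, with at most 0.509 without pioglitazone and at least 0.635 with it. No test was made on these ratios, which were partly chosen after the counts were seen.

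Abhd15 and Apmap are known from fat cells. ABHD15 takes part in the insulin control of lipolysis, and APMAP is an adipocyte plasma membrane protein. Abhd15 was at 14.9, 11.01 and 16.3 CPM with the empty vector, and at 14.8, 11.1 and 16.6 CPM when pioglitazone was added. With PPFP it was at 38.0, 46.8 and 41.9 CPM, and at 75.0, 99.5 and 92.8 CPM when pioglitazone was added. The 6 EV libraries overlapped between treatments, and the 2 PPFP groups lay above them and apart from each other. PPFP cells were higher by a log2 fold change of 1.59 ± 0.16 (adjusted p = 0.00022) without and 2.67 ± 0.19 (adjusted p = 3.8e-05) with the drug. The response to pioglitazone was 1.09 ± 0.13 in PPFP cells (adjusted p = 0.0039). Its difference from that in EV cells was 1.07 ± 0.25, just past the threshold (adjusted p = 0.049), and 13 of 18 alternative settings put it at 0.053 to 0.13.

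Apmap libraries of EV cells held 58.5, 60.9 and 69.2 CPM, and 60.4, 61.3 and 69.4 CPM with pioglitazone. Those of PPFP cells held 83.2, 78.4 and 82.9 CPM, and 163, 168 and 166 CPM with pioglitazone. Neither PPFP group overlapped any other group. Between the lines the log2 fold change was 0.38 ± 0.089 (adjusted p = 0.011) without pioglitazone and 1.39 ± 0.086 (adjusted p = 2.2e-05) with it. Without EV replicate 1 or PPFP replicate 3 the first of these had adjusted p values of 0.054 and 0.051. Pioglitazone raised Apmap in PPFP cells by 1.03 ± 0.050 (adjusted p = 0.00033), and the responses of the lines differed by 1.00 ± 0.11 (adjusted p = 0.0010).

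Angptl4, the secreted inhibitor of LPL, had the largest fold change of the 8 genes in each comparison in which any was called. EV cells held 50.1, 30.3 and 33.8 CPM, and 52.9, 51.3 and 36.8 CPM with pioglitazone. PPFP cells held 177, 187 and 185 CPM without the drug and 1044, 1074 and 1038 CPM with it. The 2 EV groups overlapped, and each PPFP group was separate from all the others. PPFP cells were 4.81-fold higher without pioglitazone (log2 fold change 2.27 ± 0.18, adjusted p = 7.3e-05) and 22.7-fold higher with it (4.50 ± 0.15, adjusted p = 3.1e-06). In PPFP cells pioglitazone raised Angptl4 5.80-fold (2.54 ± 0.049, adjusted p = 9.8e-06). The log2 response in EV cells was 0.30, with a 95% interval of -0.21 to 0.82, and the difference between the responses was 2.22 ± 0.25 (adjusted p = 0.0011).

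Lpl, the lipase that ANGPTL4 inhibits, was listed at 0 counts in 10 of the 12 libraries and at 1 count in each of 2 PPFP libraries with pioglitazone. It was too low to be tested, and no fold is given. A low count in this table does not by itself show that a gene is silent: Gnas, a gene that most cells express, was at 3 counts or fewer in every library as well.

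**Figure D3:**
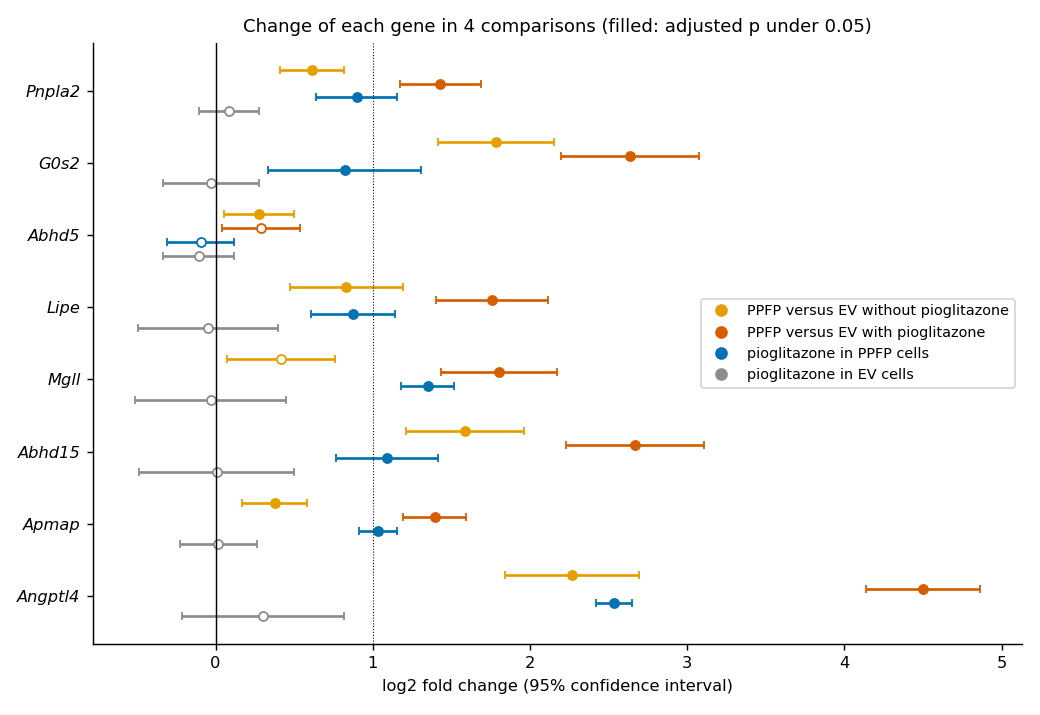
Log2 fold change of the 8 tested genes in 4 comparisons, with 95% confidence intervals, filled points for adjusted p under 0.05 and a dotted line at 2-fold. The intervals of all 8 genes include 0 for pioglitazone in EV cells, and Angptl4 lies farthest to the right in the comparison of PPFP with EV cells in the presence of pioglitazone.

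Same-numbered libraries of a cell line gave the response 3 times over. In PPFP cells the ratio of CPM with to without pioglitazone was 5.90, 5.74 and 5.63 for Angptl4 in numbers 1, 2 and 3. Mgll followed with 2.40, 2.63 and 2.55, Abhd15 with 1.97, 2.13 and 2.21 and Apmap with values from 1.96 to 2.14. The next were Pnpla2 at 1.78, 1.83 and 1.93, Lipe at 1.76, 1.76 and 1.94 and G0s2 at 1.58, 1.84 and 1.79. The ranges of these last 3 genes overlapped, as did those of Abhd15 and Apmap. Abhd5 was at 1.02, 0.895 and 0.868. In EV cells the ratios of the 8 genes lay between 0.896 and 1.16, except for Angptl4, which was at 1.06, 1.69 and 1.09.

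The libraries of number 1 were the lowest of their group for 6 of the 8 genes in PPFP cells without pioglitazone and for 6 of 8 with it. For Pnpla2, Lipe, Mgll, G0s2 and Abhd15 this held in both treatments. Number 1 was also the lowest for 44.5% and 44.8% of the 10482 genes in those groups, and whether this library bears on the levels of the 5 genes was not tested. In the group with pioglitazone G0s2 was at 284 CPM in number 1 against 435 and 438 CPM in the others.

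**Figure D4:**
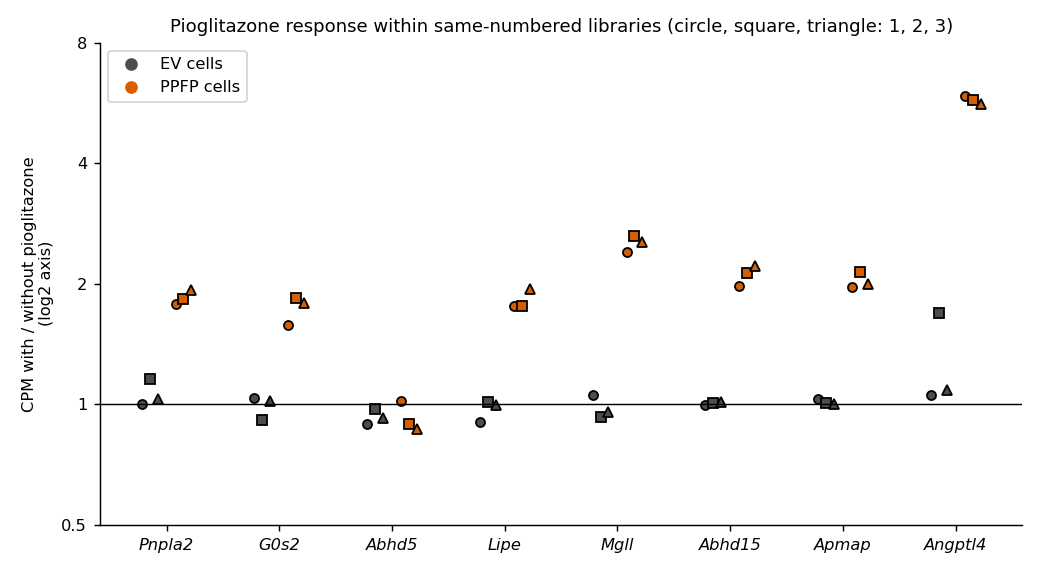
Ratio of CPM with to without pioglitazone between libraries of the same number, on a log2 axis, for the 8 tested genes in EV cells (grey) and PPFP cells (orange), with circles, squares and triangles for numbers 1, 2 and 3. For 7 of the 8 genes all 3 PPFP ratios are at or above 1.58, while the Abhd5 ratios of the 2 lines lie together near 1.

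Genes for lipid droplet proteins, both coat proteins and the endoplasmic reticulum proteins of droplet formation, included several that were higher in PPFP cells. Of 10 such genes 6 were tested, and 5 were called higher in PPFP cells both without and with pioglitazone, beside 22.0% and 26.3% of all genes tested, with medians of 2.41 and 3.82 on the log2 scale over the 6. The 5 were Plin1, Plin2, Plin5, Cidec and Fitm2, of which the FITM2 protein sits in the endoplasmic reticulum. The other was Bscl2, for seipin, also a protein of droplet formation in the endoplasmic reticulum, with log2 fold changes of -0.22 and -0.14 that were not called. Plin2, a coat protein of droplets in many cell types, was at 41.7 ± 2.8 CPM (SD, n = 3) with the empty vector, at 285 ± 3.0 CPM with PPFP and at 1046 ± 16 CPM with PPFP and the drug. Plin1, the coat protein that holds ABHD5 in resting fat cells, had 0 to 4 counts in the EV libraries, 138 to 187 in PPFP libraries and 870 to 1287 in PPFP libraries with pioglitazone. Cidec, which promotes droplet fusion, had 1 or 2 counts in EV libraries, 192 to 220 in PPFP libraries and 485 to 723 with the drug. Pioglitazone raised Plin1, Plin2, Cidec and Fitm2 in PPFP cells, 4 of the 6 tested beside 7.63% of all genes, with a median of 1.19 over the 6. Plin5 (adjusted p = 0.089) and Bscl2 (adjusted p = 0.64) were not called.

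The other neutral lipid hydrolases, listed together with their inhibitors, had lower medians than the lipolysis genes in PPFP cells. Of 15 listed, 8 were tested, and in PPFP cells 4 were called higher and 1 lower both without pioglitazone (median 0.25) and with it (median 0.36). The shares over all genes were 22.0% higher and 23.1% lower without the drug, and 26.3% and 26.4% with it. Pioglitazone raised 2 of the 8 in PPFP cells, beside 7.63% of all genes, with a median of 0.17. Lipa, the lysosomal acid lipase, was at 42.6 ± 1.6 CPM with the empty vector, 70.8 ± 1.5 CPM with PPFP and 121 ± 3.4 CPM with PPFP and the drug, and its response differed between the lines by 0.70 ± 0.081 (adjusted p = 0.0011). Dagla, which makes the endocannabinoid 2-arachidonoylglycerol, had 0 to 5 counts in the EV libraries and 49 to 166 in the PPFP libraries.

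Of 16 other genes of the vascular step, 6 were tested without pioglitazone, and 2 were called higher and 0 lower (median 0.27), beside 22.0% and 23.1% of all genes. With pioglitazone 8 were tested, 2 were called higher and 3 lower (median -0.082), beside 26.3% and 26.4% of all genes. The higher ones were Furin, a protease that cleaves ANGPTL4 and LPL, and Lipc, hepatic lipase. Furin was at 262 ± 20 CPM with the empty vector, at 479 ± 4.8 CPM with PPFP and at 603 ± 39 CPM with PPFP and the drug. Lipc was near the limit of detection, with at most 7 counts in EV libraries and 10 to 20 in PPFP libraries. The lower ones were Apoc2, the activator of LPL, with 23 to 32 counts in EV and 4 to 9 in PPFP libraries with pioglitazone, Apoa5 with 10 to 20 and 0 to 2, and Pcsk6 with 10 to 13 and 0 to 2. Gpihbp1, which anchors LPL to endothelium, and Lipg and Vldlr were at 3 counts or fewer in every library.

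Hormone and cAMP signalling switches lipolysis on in fat cells. Of 17 listed genes 11 were tested between the lines, with 3 called higher and 1 lower without pioglitazone (median 0.087) and 2 higher and 1 lower with it (median 0.082). The higher calls were near the shares over all genes, 22.0% without and 26.3% with the drug, and the lower ones were beside 23.1% and 26.4%. Pioglitazone lowered 1 of 10 in PPFP cells and raised 0 (median -0.027), beside 7.13% and 7.63% of all genes. The gene lower in PPFP cells was Npr1, the natriuretic peptide receptor that signals through cGMP, with 124 to 315 counts in the EV libraries and 0 or 1 in the PPFP libraries. In EV cells pioglitazone produced no call in any of these 4 lists.

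**Figure D5:**
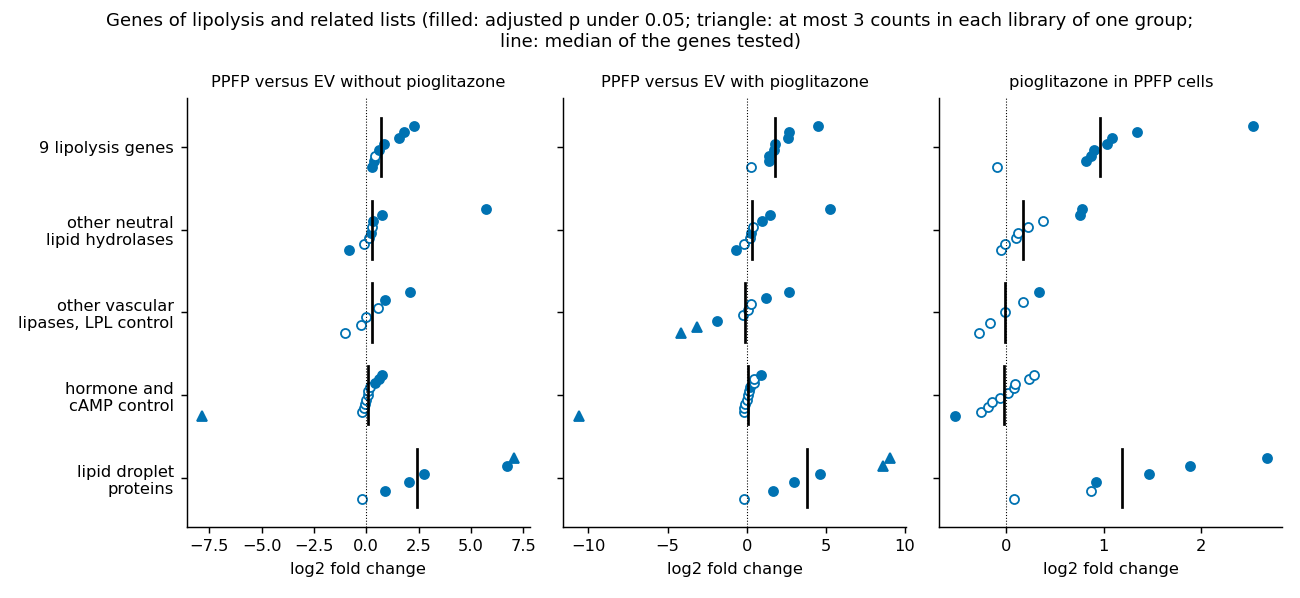
Log2 fold change of each tested gene of the 9 lipolysis genes and of 4 other lists in 3 comparisons, filled for adjusted p under 0.05, with a line at the median of each list. Triangles are genes with at most 3 counts in each library of one group, whose fitted values are not measured folds, and the medians of the lipolysis genes and of the droplet proteins lie farthest to the right.

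Markers of other cell types were checked beside these results. The summed level of 7 adipocyte markers was 9.19 to 13.9 CPM over the EV libraries, 723 to 749 CPM over the PPFP libraries and 975 to 1006 CPM over those with added pioglitazone. Most of it was Cfd, adipsin, with group means of 9.83 and 10.1 CPM for the empty vector and 716 and 924 CPM for PPFP. Plin1 and Cidec, which are also among the droplet proteins, are in this list and were higher in PPFP cells, with group means of 6.44 and 8.06 CPM without and 40.9 and 22.0 CPM with pioglitazone, against at most 0.071 CPM in EV cells. Of the other markers, Lep and Retn were at 0 in all libraries, Fabp4 had at most 5 counts, and Adipoq had group means of 1.88 to 4.54 CPM. Macrophage markers summed to at most 1.38 CPM and endothelial markers to at most 0.719 CPM. Fibroblast markers summed to 20.4 to 34.5 CPM, mostly Pdgfra, with Col3a1, Dcn and Lum at 0. The part of any of these in the results was not tested.

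The genes whose levels ran most like each lipolysis gene were found by Pearson's r of log2 CPM over the 12 libraries, which fall into groups, so the values describe shared group differences. For Angptl4 they were Lipa (0.996), Gk (0.994) and Pdk4 (0.993). G0s2 was matched by Plk2 (0.996), RGD1564664 (0.995) and Rec8 (0.995), and Pnpla2 by Zadh2 (0.995), Sec61a2 (0.991) and Bcl2l13 (0.990). Those near Lipe included Abhd15 (0.992) and St3gal2 (0.990), and those near Abhd15 included Stom (0.993) and Lipe (0.992). Mgll was nearest to Ech1 (0.988), Hsdl2 (0.988) and Oxsr1 (0.986), and Apmap to March5 (0.988), Vkorc1l1 (0.988) and Sema4b (0.986). Lipe and Abhd15 were the one pair of the 8 genes that named each other.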

How the data were processed

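RNA-seq of the 12 libraries used TruSeq RNA kits and 50 nt paired-end reads. The authors aligned reads to rn4 with TopHat2 2.0.11, counted them per gene with HTSeq 0.6.1p1 in intersection-strict mode, and deposited raw counts by gene symbol; the strand setting is not given in the sources used here. The 9 genes and the other lists were chosen with earlier results of these data known.

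Counts were tested in R 4.3.3 with edgeR 4.0.16: filterByExpr, TMM factors, the quasi-likelihood test and Benjamini-Hochberg adjustment over all genes tested, on the 6 libraries of each comparison. The difference in response was the interaction term over 12 libraries. CPM used TMM factors over the 12 libraries (0.925 to 1.05). The scripts were tested on simulated counts. Genes named from the other lists were those called above 2-fold, apart from Bscl2, Gpihbp1, Lipg, Vldlr and Gnas, which were chosen after their values were seen, and the 3 genes most like each of the 9 were ranked by Pearson's r of log2 CPM with a prior count of 2, where the 9 were called above 2-fold in any comparison. Genes at 3 counts or fewer in every library of a group are given as counts.

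Alternatives were the exact test with tagwise dispersion, DESeq2 1.42.0, RLE or library size alone, no filter or at least 10 counts in every library, all 12 libraries in one fit, a replicate block, and leaving out each library. Ratios of Abhd5, Lipe and Mgll to Pnpla2 were added after seeing the data. Same-numbered libraries deviated together within each cell line (r of 0.432 to 0.743 in PPFP and 0.530 to 0.774 in EV cells over genes) and were treated as pairs there, although PPFP numbers 2 and 3 correlated more strongly across numbers (highest r 0.535) than within.

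The 12 libraries are described as 3 independent experiments, with the samples of an experiment on the same lanes. Promoter windows came from RefSeq on GRCr8. The ChIP-seq peak lists, in rn4, were not used here. A few genes that these rules name are not reported here.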

Additional observations from a re-analysis of the deposited data

Results flagged for a closer look

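The response to pioglitazone differed between PPFP and EV cells for 5 of the 8 lipolysis genes tested, by edgeR's interaction term, beside 1.38% of all genes tested. On the log2 scale the response in PPFP cells exceeded that in EV cells by 2.22 for Angptl4, 1.37 for Mgll, 1.07 for Abhd15, 1.00 for Apmap and 0.80 for Pnpla2. The call for Abhd15 (adjusted p = 0.049) was lost in 13 of 18 alternative settings. Lipe (0.91, adjusted p = 0.055) and G0s2 (0.83, adjusted p = 0.13) had estimates of the size of that for Pnpla2 and did not pass in the unpaired fit. With same-numbered libraries of a cell line paired both passed, with adjusted p values of 9.8e-07 and 8.9e-07, in a fit that called 17.2% of all genes higher. Abhd5 had an estimate of 0.0009.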

How the results depend on the processing

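For the 8 genes tested, the comparison of the lines with pioglitazone kept its direction and side of the threshold in 111 of 112 gene and setting combinations, the comparison without pioglitazone in 96 of 112, and pioglitazone in PPFP cells in 106 of 112. The difference in response did so in 116 of 144. The number of genes called above 2-fold for that difference was 4, but 2 with library size alone and 2 to 5 when 1 library was left out (2 without EV vehicle 3, EV pioglitazone 1 or 2, PPFP vehicle 2 or PPFP pioglitazone 2). Mgll without pioglitazone was called by the exact test (adjusted p = 0.029), by DESeq2 (0.027), with RLE factors (0.049) and without EV vehicle 2 (0.018). In 9 of 14 settings it stayed uncalled, among them library size alone (log2 fold change 0.34, adjusted p = 0.11). Without EV vehicle 3 its log2 fold change was 0.26 (adjusted p = 0.051). Abhd5 without pioglitazone was not called by the exact test (0.054), with library size alone (0.13), with no filter (0.059) or without any 1 of 5 libraries (0.062 to 0.11), and with pioglitazone it was called in the fit of all 12 libraries (0.036). G0s2 in PPFP cells lost its call with library size alone (0.064). The difference for Lipe (0.0060) and G0s2 (0.037) was called by DESeq2. The cause of these changes was not tested.

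Among the fitted changes of the 8 genes, signs changed for estimates near 0. The difference for Abhd5 was -0.041 with library size alone, -9.0e-05 with at least 10 counts in every library, -0.0014 with the replicate block within each cell line, and -0.10 to 0.059 with 1 library left out. In EV cells, leaving out 1 library moved the pioglitazone response to between -0.20 and 0.077 for Lipe, -0.18 and 0.12 for Mgll, -0.097 and 0.11 for G0s2, -0.15 and 0.16 for Abhd15, and -0.061 and 0.11 for Apmap.

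Between the lines, same-numbered libraries did not consistently deviate together (r of -0.378 to 0.316). Whether a number marks 1 of the independent experiments is not stated in the sources used here. With a replicate block on the number Mgll without pioglitazone was called (0.44, adjusted p = 0.041) and Abhd5 was not (0.28, adjusted p = 0.088). Within the lines, pairing changed no other call than those of Lipe and G0s2 given with their results. Alternatives on peaks were not run because the peaks were not used here, and the ratio of Angptl4 to Lpl could not be formed with Lpl at 0 in 10 libraries. Over all genes, the number called for pioglitazone in PPFP cells was 1486, 5198 with the replicate block and 632 to 1729 with 1 library left out (755 or fewer without PPFP vehicle 2 or 3 or PPFP pioglitazone 2 or 3). For the difference in response it was 277, 3594 with the block, 601 by DESeq2 and 124 to 308 with 1 library left out (162 or fewer without EV pioglitazone 1 or any of the same 4). Lipc had few counts in both lines and Dagla in EV cells, and the effect of depth on their values was not tested.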
